A study of Homo sapiens with 4 samples.

Results

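The locus of CDKN1A was described from p53 ChIP-seq peak lists made in H1299. This established line from a human non-small-cell lung carcinoma lacks endogenous p53, and p53 was expressed in it. One group, p53WT (2 libraries), expressed wild-type p53, and the other, CASM34 (2 libraries), expressed a mutant of that name; the genotype of the cells is given as p53-/- for all 4 libraries. The series title speaks of cancer-associated synonymous mutations, which are base changes that leave the encoded amino acid unchanged, and the labels give no base change for CASM34 and no vector for either form. All 4 libraries were precipitated with DO-1, an antibody against the N-terminal part of p53, and each bears the number 1 or 2 in its title. The members are all rows with a summit, the highest point of a peak, inside CDKN1A or within 50 kb of it. There were 4 such rows among 13748 in all: 2 of the 5658 of p53WT 2 and 2 of the 3838 of CASM34 2, with none of the 2054 of p53WT 1 or the 2198 of CASM34 1. The lists hold no read counts, so depth is unknown, and where a list has no peak, binding may still have occurred.

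CDKN1A encodes p21, an inhibitor of cyclin-dependent kinases that holds cells before DNA replication. It is a classical target that p53 activates after DNA damage, through response elements upstream of its main start. Long non-coding RNAs flank or overlap it. PANDAR binds the transcription factor NF-YA and limits the activation of death genes, and DINOL (also DINO) binds p53 and prolongs the damage response.

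In the RefSeq table of GRCh38, CDKN1A spans chr6:36676463-36687332, with 12 transcripts. The start given for its promoter window is 36678714 on the plus strand, 2251 bp from the lower end of the gene interval, since some transcripts begin further upstream. DINOL (chr6:36677609-36678559) lies inside that interval on the minus strand, and its start is 155 bp from that of CDKN1A. PANDAR (chr6:36673621-36675126) has its upper coordinate 1337 bp below the interval and overlaps the pseudogene LAP3P2 (36673750 to 36675445). No strand was available for PANDAR here, so positions beside it are given by coordinate and not by its direction of transcription. The other protein-coding gene near by, RAB44, a gene for a small GTPase, begins 10.5 kb beyond the far end. The promoter sequence is shown because p53WT 2 had its peak just after this start and CASM34 2 had none there. It is the 250 bases of plus strand before the CDKN1A start, from RefSeq (GRCh38.p14, chr6:36678464-36678713), with the GC box GGGCGG in capitals. Below it stand the first 30 bases of the DINOL promoter window (minus strand, chr6:36678780-36678809), with the 20 bases that lie inside the p53WT 2 peak in capitals.
CDKN1A promoter: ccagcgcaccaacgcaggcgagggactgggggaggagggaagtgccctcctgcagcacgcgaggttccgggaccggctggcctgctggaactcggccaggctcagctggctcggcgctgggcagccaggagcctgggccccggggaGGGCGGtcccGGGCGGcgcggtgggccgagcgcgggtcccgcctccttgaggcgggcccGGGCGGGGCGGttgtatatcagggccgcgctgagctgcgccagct
DINOL promoter: CGCTCTCTCACCTCCTCTGAgtgcctcggt

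The promoter windows hold 250 bases before and 50 after a start. Those of CDKN1A and DINOL share 254 bases on opposite strands, so their matches are not separate. No match to the p53 half-site consensus was found in either, while 6.54% of the 27326 RefSeq windows on chromosomes 1 to 22, X and Y hold one. Neither window has the core tetramer CATG or CTAG (in 55.7% and 50.3% of windows), and both have 2 matches to CAAG or its reverse CTTG (in 86.1%). GGGCGG, the box bound by SP1 and its relatives, was found 4 times on the plus strand and 0 times on the minus strand; 44.6% of windows hold a match on either strand and 9.14% hold 4 or more. The matches begin 104, 94, 45 and 40 bp before the start, and the last pair share a base. TATAAA was not found (in 11.9% of windows). The CDKN1A window had 74.3% G and C, above that of 89.5% of windows, and 29 CpG. These matches describe the letters of the window, which ends 27 bp before the p53WT 2 peak begins. The DINOL window holds 20 bases of that peak. The rest of the sequence under that peak, and all of it under the other peaks, was not analysed here.

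At the CDKN1A start, p53WT 2 had a peak and CASM34 2 did not. The p53WT 2 peak spans chr6:36678790-36678986 (197 bp). Its summit at 36678890 lies 176 bp downstream of the CDKN1A start, within the gene, and 331 bp upstream of the DINOL start. The authors' caller gave it a fold of signal over background of 4.18 and a −log10 q of 3.39. All such values are the authors' own and describe a peak within its own list. By −log10 p it ranked 2058 of 4961 peaks on the main chromosomes, above 58.5% of its list, but by fold it was above only 28.1%. It is thus a peak of middling rank.

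Upstream, at the lower end of the gene interval, CASM34 2 had a peak and p53WT 2 did not. This peak spans chr6:36676192-36676642, which is 451 bp and wider than 89.5% of its list. Its summit at 36676300 lies 2414 bp upstream of the CDKN1A start and 163 bp outside the gene interval. It is 1174 bp above the upper coordinate of PANDAR and 1309 bp from DINOL. Of its bases, 271 lie between PANDAR and CDKN1A and 180 within the CDKN1A interval. Its fold was 6.31 and its −log10 q 10.7. It ranked 560 of 3211 peaks, above 82.6% of the list by −log10 p and 77.2% by fold, the highest rank percentile of the 4 members by either measure.

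The remaining pair of peaks lay further upstream, outside any RefSeq gene. In p53WT 2 a peak spans chr6:36661016-36661195 (180 bp). Its summit at 36661090 lies 17.6 kb before the CDKN1A start and 12.5 kb below PANDAR, the nearest gene. Its −log10 q was 2.49, above 37.1% of the list. In CASM34 2 a peak spans chr6:36667273-36667444 (172 bp). Its summit at 36667422 lies 11.3 kb before the CDKN1A start and 6199 bp below PANDAR. Its −log10 q was 1.93, above 15.7% of the list, close to the lowest value of 1.31 in that list. Both are narrow, weakly ranked calls. Over the locus, 3 of the 4 summits lay upstream of the CDKN1A start, and the 58.6 kb of the window beyond the start held the p53WT 2 summit 176 bp from it and no other. The other genes within 50 kb, RAB44, the lncRNA LOC105375038 and the pseudogenes RNU1-88P and GPR166P, had 0 summits within 10 kb of an end in all 4 libraries, while LAP3P2 shares the peaks of PANDAR. The farthest member lies 15.4 kb from CDKN1A, and the nearest summits beyond the 50 kb limit lie 480 kb below and 199 kb above the gene in p53WT 2, and 756 kb below and 746 kb above it in CASM34 2.

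**Figure D1:**
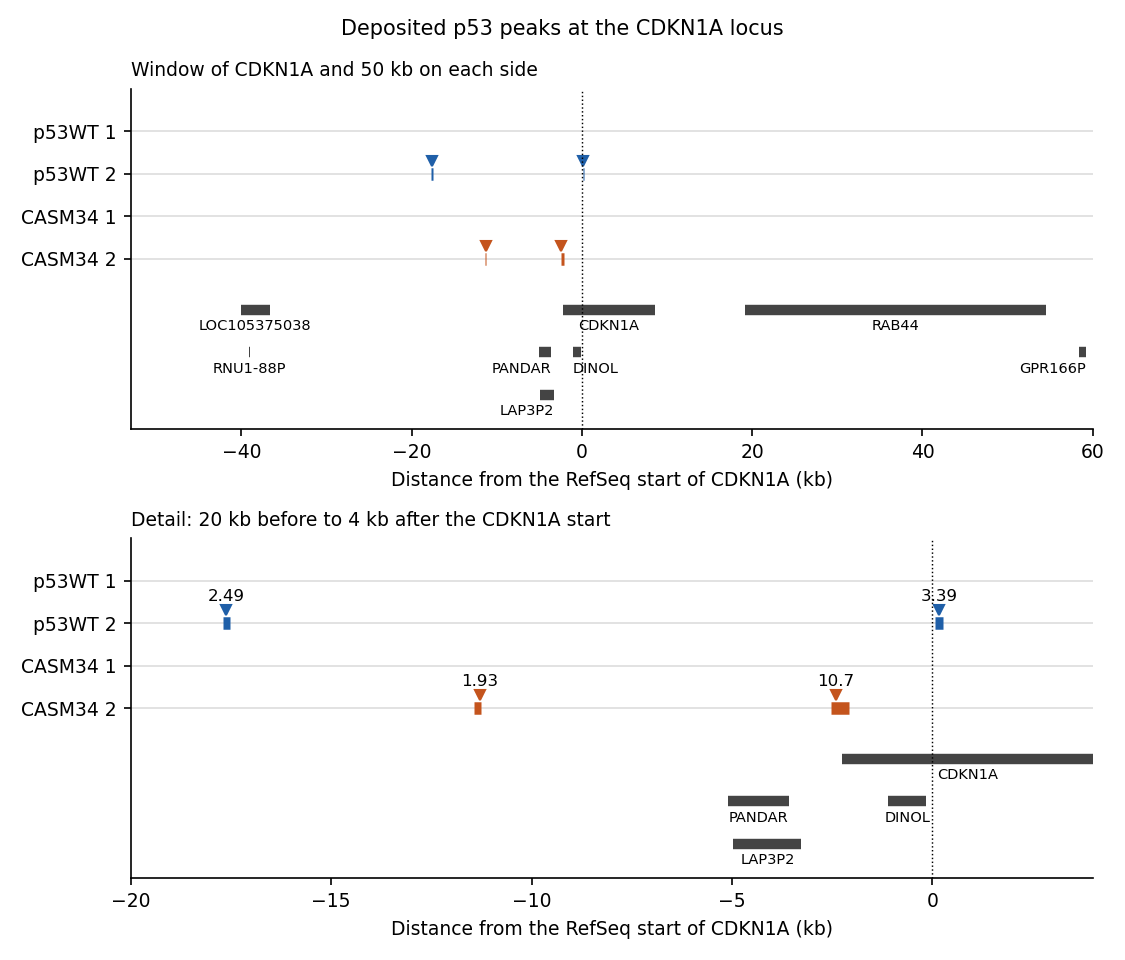
Peaks (bars) and summits (triangles) of the 4 libraries by distance from the CDKN1A start in kb (dotted line), with RefSeq genes in grey; the upper panel shows the whole window, the lower panel the upstream part with the deposited −log10 q above each summit. The libraries numbered 1 have no peak in the window, and the p53WT 2 and CASM34 2 peaks lie at different places.

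No member overlapped a peak of another library. Among the 4 pairs of peaks from different libraries, 0 overlapped by at least 1 bp and 0 had summits within 500 bp. The closest pair, the p53WT 2 peak at the start and the CASM34 2 peak upstream of it, were 2590 bp apart by summit with 2147 bp between their edges. The more distant upstream peaks were 6332 bp apart by summit. Both libraries numbered 2 therefore called the gene, and each did so at its own sites. The p53WT 2 call is lost with the best 1604 peaks of each list, or where a −log10 q of 5 or more is required, while the CASM34 2 peak at 36676300 stays under both. The overlap was compared with other genes after the values were seen. A summit within 10 kb of either end was called in both libraries numbered 2 for 876 protein-coding genes (4.37%). In 239 of these (27.3%, exact Clopper-Pearson 95% interval 24.4 to 30.4, which covers counting error only) no such peak overlapped between the libraries, as at CDKN1A. Neighbouring genes can share a peak, so the genes are not all independent and the interval may be too narrow. The median distance between the nearest summits was 137 bp over the 876 genes and 887 bp over the 239, against 2590 bp at CDKN1A.

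**Figure D2:**
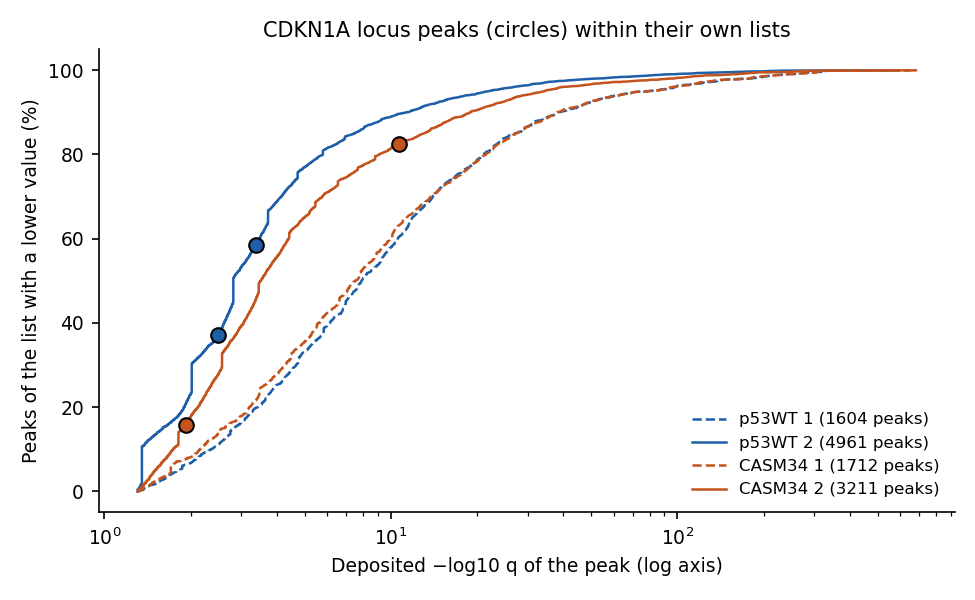
Percent of the peaks of a list that have a lower −log10 q (vertical axis) against the deposited −log10 q (horizontal, log axis), 1 curve per library, with the 4 CDKN1A locus peaks as circles. The CASM34 2 peak with a −log10 q of 10.7 stands above 82.6% of its list, and the other members stand between 15.7% and 58.5%.

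The number of locus peaks did not separate the groups. The p53WT libraries had 0 and 2, the CASM34 libraries also 0 and 2, a mean of 1.0 ± 1.41 (SD, n = 2) in each group. The difference of 0 had an exact two-sided permutation p of 1, and the smallest p that 2 libraries against 2 can give is 0.333. The labels do not say whether libraries of a group came from separate cultures, so this spread may be technical. The presence of any peak followed the library number: both libraries numbered 2 had some, and both numbered 1 had none. In p53WT 1 the nearest summits lay 19395 kb below and 6682 kb above CDKN1A, and in CASM34 1 they lay 10520 kb below and 21763 kb above. On the whole of chromosome 6 these lists had 56 and 60 peaks, against 394 in p53WT 2 and 248 in CASM34 2.

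The background of called genes differed in the same way. Inside or within 50 kb, a summit was called for 27.5% of the 20033 protein-coding genes in p53WT 2 and 18.9% in CASM34 2, against 2.74% in p53WT 1 and 3.52% in CASM34 1. CDKN1A is among the called genes of both libraries numbered 2. Having 2 or more peaks in that window was less common, with 6.48% of genes in p53WT 2, 3.47% in CASM34 2 and 1.77% in both. Within 10 kb of either end, CDKN1A had 1 peak in p53WT 2, where 13.8% of protein-coding genes were called, and 2 in CASM34 2, where 9.43% were called and 0.869% had 2 or more. For lncRNA genes the shares within 10 kb were 6.91% in p53WT 2 and 4.23% in CASM34 2. PANDAR counted 1 peak in p53WT 2 and 2 in CASM34 2, and DINOL 1 in each. These are the same peaks as those of CDKN1A, so the 3 genes give no separate counts.

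The best CDKN1A peak stood higher among the called genes of CASM34 2 than among those of p53WT 2. Among genes called within 10 kb, CDKN1A ranked 915 of 2768 in p53WT 2 by −log10 p and 60 of 1889 in CASM34 2. A peak at least as strong was found at 4.57% of protein-coding genes in p53WT 2 and at 0.300% in CASM34 2. With 1 library each, these ranks compare the lists and not the forms of p53.

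**Figure D3:**
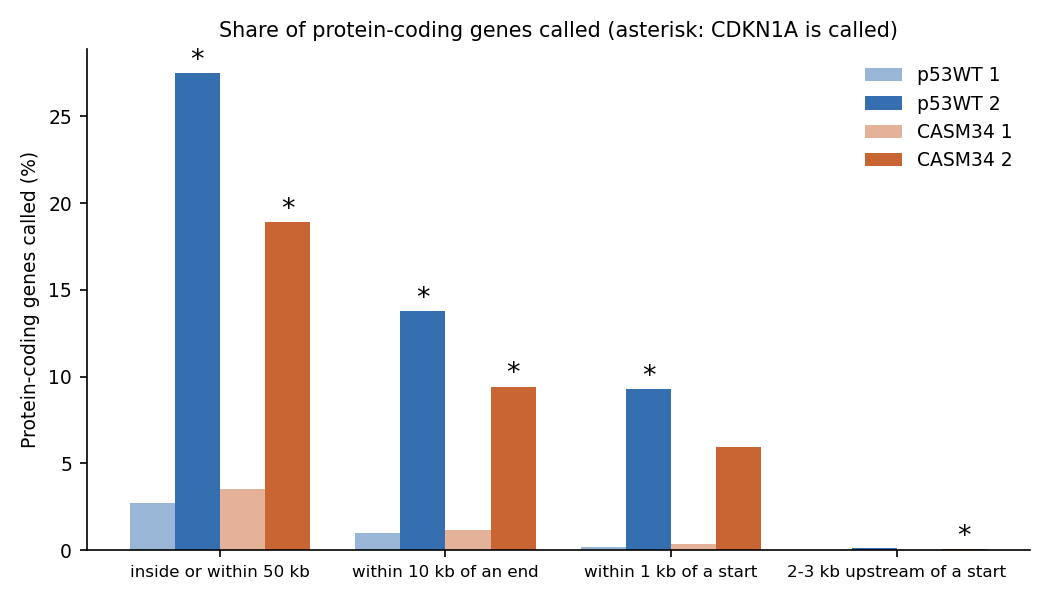
Percent of protein-coding genes called in each library (bars) under 4 definitions of a call, from the whole window to 2-3 kb upstream of a RefSeq start; an asterisk marks a library in which CDKN1A is called. The libraries numbered 1 call 2.74% and 3.52% of genes in the widest window, and calls 2-3 kb upstream are rare in all 4 libraries.

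Distances to RefSeq starts, an analysis added after the data were seen, placed the pair of nearest peaks against other genes. In p53WT 2, 1622 peaks had a summit within 5 kb of a protein-coding start. Of these, 942 (58.1%, 95% interval 55.6 to 60.5) lay in the first 500 bp downstream, and so did the CDKN1A peak. In CASM34 2 the share was 57.2% (588 of 1028, 95% interval 54.1 to 60.2). Both intervals cover counting error within 1 library only. A summit within 1 kb of the start was called at 9.28% of 15859 protein-coding starts in p53WT 2 and 5.97% in CASM34 2. The p53WT 2 peak at CDKN1A is therefore in the place where this list most often has its gene peaks.

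The CASM34 2 peak lay further from this start than most. A summit 2 to 3 kb upstream was called at 0.0820% of protein-coding starts in CASM34 2, that is 13 starts, and at 0.151% in p53WT 2, that is 24. The range of 2 to 3 kb belongs to the analysis added after the data were seen, so that CDKN1A falls in it is built in. Of the CASM34 2 peaks, 5 lay in this range from their nearest protein-coding start. Most of the 13 starts were thus counted through a peak nearer another start. CDKN1A had the highest −log10 q of the 13, with 10.7, and the next was LOC124901798 with 7.29. In p53WT 2 the highest of the 24 was 6.46, at LOC124901652. CDKN1A was not among these 24. These shares use the 1 start that the promoter table gives for a gene. Measured from either end of the gene interval, where some CDKN1A transcripts begin, the CASM34 2 summit lies within 1 kb, as was so for 6.04% of protein-coding genes in that library.

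**Figure D4:**
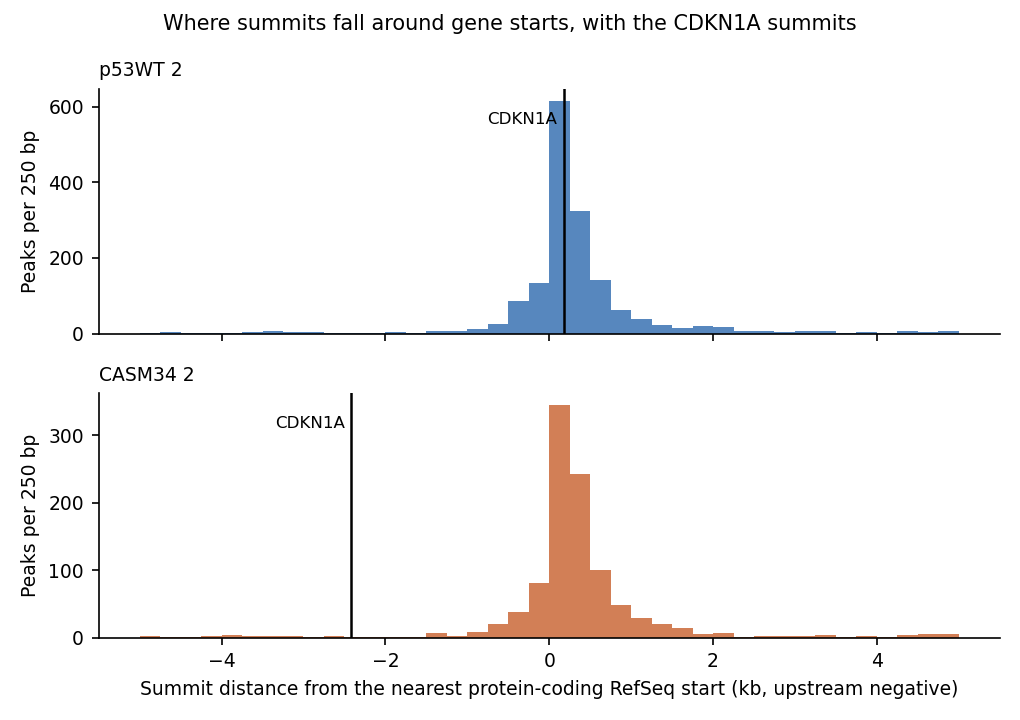
Number of peaks per 250 bp (vertical axis) by distance of the summit from the nearest protein-coding RefSeq start in kb, for p53WT 2 (upper) and CASM34 2 (lower), with vertical lines at the CDKN1A summits. The p53WT 2 summit of CDKN1A lies in the tall bins just after the start and the CASM34 2 summit 2414 bp upstream, where few peaks fall.

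CDKN1A and DINOL form a pair of nearby starts on opposite strands. A lncRNA start on the other strand lies within 500 bp of 1470 of the 15859 protein-coding starts (9.27%). In p53WT 2 a summit within 1 kb was called at 15.0% of these and 8.69% of the others, and in CASM34 2 at 9.73% and 5.58%. In CASM34 1 the shares were 0.612% and 0.347%, and in p53WT 1, where 1 paired start was called, they were in the other order, 0.0680% and 0.181%. No test was made of these shares.

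Other genes of the pathway were taken from a list of 30 CDK inhibitors, cyclins, CDKs and genes that act with p21. In p53WT 2 a summit within 10 kb of either end was called for 10 of them (33.3%), where 13.8% of protein-coding genes were called. In CASM34 2 it was called for 8 (26.7%), where 9.43% were. The counts were 0 in p53WT 1 (background 0.968%) and 1 in CASM34 1 (1.14%). Neighbouring genes of the list share a peak in p53WT 2, so its 10 calls are not all separate. Lists of equal length held the best 1604 peaks of each. With these, the counts were 2 of 30 in p53WT 2 and 3 of 30 in CASM34 2. Of all 20033 protein-coding genes, 605 (3.02%) and 657 (3.28%) were then called. The libraries numbered 2 shared 4 genes, which is 4 of 10 and 4 of 8. Over all protein-coding genes the 876 shared were 31.6% of those called in p53WT 2 and 46.4% of those called in CASM34 2, so the shares of the list are near the background.

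Among the other CDK inhibitors, CDKN1B, which encodes p27, a relative of p21, was called in 3 libraries. It had 1 peak in p53WT 2 (−log10 q 3.12), 1 in CASM34 1 (2.71) and 4 in CASM34 2 (best 4.18). It was the 1 listed gene with a call in a library numbered 1, where CDKN1A had none. CDKN2C, an inhibitor of CDK4 and CDK6, had a best −log10 q of 3.81 in p53WT 2 and 4.57 in CASM34 2. CDKN2B, which inhibits the same kinases, had 4.04 and 1.76. Within CASM34 2 these values were below the 10.7 at CDKN1A. In p53WT 2 those of CDKN2B and CDKN2C were above the 3.39 at CDKN1A, and that of CDKN1B was below it.

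Among the genes that p21 acts on or with, CCNE2, a cyclin that activates CDK2, had summits 667 bp and 675 bp inside its nearer end in p53WT 2 and CASM34 2. Its −log10 q was 2.97 and 2.55. In this gene, unlike CDKN1A, both libraries placed the summit within a few bases. CCNE2 was alone in this among the listed genes called in both, by best summit. The best summits in p53WT 2 and CASM34 2 were 22008982 and 22006060 at CDKN2B. They were 50977819 and 50969510 at CDKN2C, and 12723954 and 12717541 at CDKN1B. Each of these genes had further peaks in 1 of the libraries, which may lie nearer. RBL2, the pocket protein p130, had a −log10 q of 4.73, the cell cycle transcription factor gene E2F1 3.14, and PCNA, the replication clamp that p21 binds, and CCNB2, a mitotic cyclin, 2.02 each; these were called in p53WT 2 and not in CASM34 2. E2F3, of the E2F family, had 4.18 and LIN9, a subunit of the MuvB complex, had 2.34; these were called in CASM34 2 and not in p53WT 2.

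The protein-coding genes with calls most like those of CDKN1A were ranked by the sum over the 4 libraries of the differences in rank percentile of the best peak within 10 kb. PHF20L1 and TMEM71, which share their peaks and so count once, were nearest, with a sum of 9.61 points, followed by the histone gene H4C15 with 11.0, ZCCHC2 with 14.3 and GADD45A, a growth arrest gene also activated by p53, with 14.6. All were called in the libraries numbered 2 and not in those numbered 1. At all 5 a peak of p53WT 2 overlapped one of CASM34 2, as was so at 72.7% of the 876 genes called in both. The nearest summits were 12 to 243 bp apart. At H4C15 the nearest summits were not those of the best peaks, on which the likeness rests. Its best summits lay at 149840382 in p53WT 2 and 149853425 in CASM34 2, farther apart than the 2590 bp at CDKN1A.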

How the data were processed

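Each of the 4 libraries has 1 deposited peak list, and replicates were not pooled. Per the submitters' processing notes, the build was GRCh38, and the tools included bedtools, Bowtie2 and Trim Galore. Which caller, control and threshold made the peaks is not given in the sources used here. For each peak the authors deposited a fold (ratio) of signal over background, a −log10 p and a −log10 q, and a score that follows the −log10 q. The lowest −log10 q in the lists corresponds to a q-value of 0.05.

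Repeated rows of an interval were merged into 1 peak, keeping the summit with the best −log10 p, and ranks and backgrounds used chromosomes 1 to 22, X and Y. Positions are 1-based. Genes and promoter windows came from RefSeq tables of GRCh38.p14: 20033 protein-coding genes, of which 15859 have a promoter window. CDKN1A and DINOL matched a window; PANDAR is named only. The planned motif search around summits was left out, as no genome sequence was used here.

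The members and lists were chosen with earlier results of these data known. The text names the 3 genes of the locus and their neighbours within 50 kb, the 10 listed cell cycle genes with the highest −log10 q in a library numbered 2, and the 5 genes most like CDKN1A outside 100 kb of it. A further gene that this rule for named genes would name is not reported here. LOC124901798 and LOC124901652 were added once values had been seen. The number of locus peaks was compared by an exact permutation test; all else is description. Calling functions were tested on simulated data with summits planted at known distances. Python 3.11.15, pandas 2.3.3 and scipy 1.17.1 were used. Alternatives covered the window, the −log10 q, list length, repeated rows, overlap, ranking and each library left out.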

Additional observations from a re-analysis of the deposited data

How the results depend on the processing

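The number of locus peaks fell from 4 to 2 when a −log10 q of 3 or more was required, which leaves the p53WT 2 peak at the start and the CASM34 2 peak upstream of it. It fell to 1 when 5 or more was required and to 1 with the best 1604 peaks of each list, both times the CASM34 2 peak; fewer peaks were admitted by construction. The difference between groups (p53WT minus CASM34) ran from -1 to 1 when each library was left out in turn, with p = 1 by the exact permutation test. With the number as a replicate block it was 0 (exact permutation p = 1, smallest possible 0.5); the labels do not say what the number marks. The count of overlapping pairs was 0 under each definition of overlap tried. Genes called within 10 kb fell to 605 in p53WT 2 and 657 in CASM34 2 with lists of equal length. With the same list length p53WT 1 had 194 and CASM34 1 had 187. Measured from RefSeq starts in place of either end (an alternative added after seeing the data), p53WT 1 had 94 against 194, p53WT 2 had 1899 against 2768, CASM34 1 had 120 against 228 and CASM34 2 had 1249 against 1889. A start was available for 15859 of the 20033 protein-coding genes, so the counts from starts also rest on fewer genes. Listed cell cycle genes within 50 kb were 15 in p53WT 2 and 13 in CASM34 2, against 10 and 8 within 10 kb. Of all protein-coding genes, 27.5% and 18.9% had a summit inside or within 50 kb, against 13.8% and 9.43% within 10 kb of either end. Depth is unknown, so no limit of detection can be given.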
